A study of Homo sapiens with 12 samples.

Results

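Cancer-associated long noncoding RNAs are transcripts without a known protein product whose levels have been linked to tumors. The 10 described here, CCAT1, PVT1, HULC, LINC00205, MALAT1, NEAT1, TUG1, OIP5-AS1, MIAT and HCG11, were chosen by gene name while their FPKM values in these libraries and their differences between siRNAs were known. They are 10 of the 58174 genes that each table lists, which include 7514 lincRNAs. Their values are therefore a description. Where a call is named for one of them, it says only on which side of the threshold the fit put it, and it is no evidence, as the choice had used the same differences.

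Poly-A-enriched RNA was sequenced from Hep-G2 cells, an established line derived from a hepatoblastoma of the liver, and from BE(2)-C cells, an established line derived from a neuroblastoma. In each line, 3 libraries came from cells that had received a control siRNA (siC) and 3 from cells that had received a pool of siRNAs against IGF2BP1 (siI1), with harvest 72 h later. The siRNA concentration differed between the lines, so each line has its own knockdown and its own control. No source used here says whether the 3 libraries of a group came from separate cultures, although the study's methods speak of biological replicates, and p-values measure the spread between these libraries, which may in part be technical. Levels are FPKM, a unit inferred from the values, the reads per kilobase of gene scaled to the size of the library, a measure on which genes of different length can be set side by side. The tables of the cell lines were normalized separately, which holds for every level compared between lines.

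IGF2BP1 is an oncofetal RNA-binding protein, abundant in embryonic tissues and in many tumors, that is best known for protecting bound mRNAs from decay. Long noncoding RNAs act in several ways, as scaffolds of nuclear bodies, as partners of chromatin complexes, as decoys of microRNAs or through transcription at their own locus. IGF2BP1 has been reported to bind HULC and to recruit the CCR4-NOT deadenylase complex, which shortens poly-A tails, and HCG11 has been linked to IGF2BP1 as well.

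The reads assigned to genes ran from 13398903 to 15176939 per library in Hep-G2 and from 12852988 to 15721210 in BE(2)-C. IGF2BP1 was lower in every siI1 library. The siC libraries of Hep-G2 had 48.6, 46.6 and 50.8 FPKM of it and the siI1 libraries 12.6, 10.7 and 10.7, a log2 fold change of -2.1 with a standard error (SE) of 0.08 and an adjusted p of 7.8e-06 by limma. Those of BE(2)-C had 21.3, 20.7 and 21.6 FPKM with siC and 4.85, 4.75 and 4.87 with siI1, a log2 fold change of -2.11 (SE 0.05, adjusted p of 1.5e-05 by limma). Fold changes here and in all that follows are on the log2(FPKM + 0.1) scale, siI1 minus siC, which understates the changes of genes at low levels. Of the paralogs, IGF2BP2 did not pass the test in Hep-G2 except with equal sums of FPKM (-0.31), and no BE(2)-C library held more than 3 of its reads. IGF2BP3 did not pass it in Hep-G2 except without siI1 replicate 1 (-0.21) and was higher in BE(2)-C (0.34, adjusted p of 0.0042 by limma, 3 of 3 siI1 libraries above all siC libraries). Within this family, which includes the siRNA target, only IGF2BP1 of 3 tested genes was called in Hep-G2, at a median of -0.14, beside 44.8% of all tested genes. Both tested in BE(2)-C were called, beside 28.2%, and their median of -0.89 is the midpoint of IGF2BP1 and IGF2BP3, which lay on opposite sides of 0.

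The lines carried the transcripts of their labelled origin. All 7 liver markers were tested in Hep-G2, where ALB, the serum albumin gene, reached 3156 FPKM, AFP 1563 and APOA1 1249 in the mean of the siC libraries, and the 7 were at or below 0.0874 FPKM in the siC mean of BE(2)-C. All 8 neuroblastoma markers were tested in BE(2)-C, where MYCN stood at 1660 FPKM, PHOX2A at 358 and HAND2 at 285, and in Hep-G2 only DBH passed the filter, at 0.0846 and without a call. Markers moved with siI1 within a line as well. In Hep-G2, 4 of the 7 were called higher and 2 lower, beside 21.9% and 23% of all tested genes, at a median of 0.35, with ALB and APOA1 among the higher and AFP among the lower. In the other line, 1 of the 8 was called higher and 4 lower, beside 13.3% and 14.8%, at a median of -0.18. The part of these shifts in any result given here was not tested. In bulk RNA, fewer cells with a transcript and less of it per cell cannot be told apart.

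A single library stood apart from its group. Over the 19436 genes tested in Hep-G2, siI1 replicate 1 lay at a median absolute log2 distance of 0.246 from the mean of the other 2 siI1 libraries, against 0.115 to 0.169 for the remaining Hep-G2 libraries and 0.122 to 0.174 over 18656 genes in BE(2)-C. It also had the highest IGF2BP1 value of the Hep-G2 siI1 libraries, 12.6 FPKM. Each Hep-G2 log2 fold change of the 10 noncoding RNAs is therefore given with and without it. Settings under which a call was lost or gained are named beside it, such as another scaling (median centring or equal sums of FPKM), voom on recovered reads, no filter on low values, no mean-variance trend or replicate as a block.

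Of the 10 noncoding RNAs, 8 passed the filter of at least 0.1 FPKM in at least 3 of 6 libraries in Hep-G2 and 7 did in BE(2)-C. HCG11 passed in neither line, MIAT did not pass in Hep-G2, and CCAT1 and HULC did not in BE(2)-C. In Hep-G2, 5 of the 8 were called at an adjusted p below 0.05, beside 44.8% of all tested genes. The 3 called higher were LINC00205, HULC and PVT1, beside 21.9% of genes called higher, and the 2 called lower were CCAT1 and TUG1, beside 23% called lower. The same 5 had siC and siI1 libraries that did not overlap, as 55.8% of tested genes did. The count in Hep-G2 was 6 without siI1 replicate 1, where MALAT1 was called at -0.24, and 4 without siC replicate 3, where TUG1, at -0.35, was not.

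Of the 7 tested in BE(2)-C, 4 were called, beside 28.2% of tested genes. LINC00205, MALAT1 and NEAT1 were called higher, beside 13.3%, and MIAT was called lower, beside 14.8%. With TUG1, 5 of the 7 had libraries that did not overlap, as 45% of tested genes did. LINC00205 alone was called, so that the count fell to 1, without siC replicate 1 and without siI1 replicate 1, 2 or 3, as well as in a fit that kept all low values and in one with replicate as a block. It was 2 without siC replicate 2, with NEAT1, or 3, with OIP5-AS1, 3 with no trend or a pseudocount of 1, without MALAT1, and 5 with median centring or voom, with TUG1. As the noncoding RNAs were chosen with these differences known, nothing is read from either count. Over those tested, the median was -0.05 on the log2 scale for Hep-G2 (0.04 with median centring and -0.21 with equal sums of FPKM) and 0.17 for BE(2)-C, beside 0.01 and 0.02 over all tested genes.

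**Figure D1:**
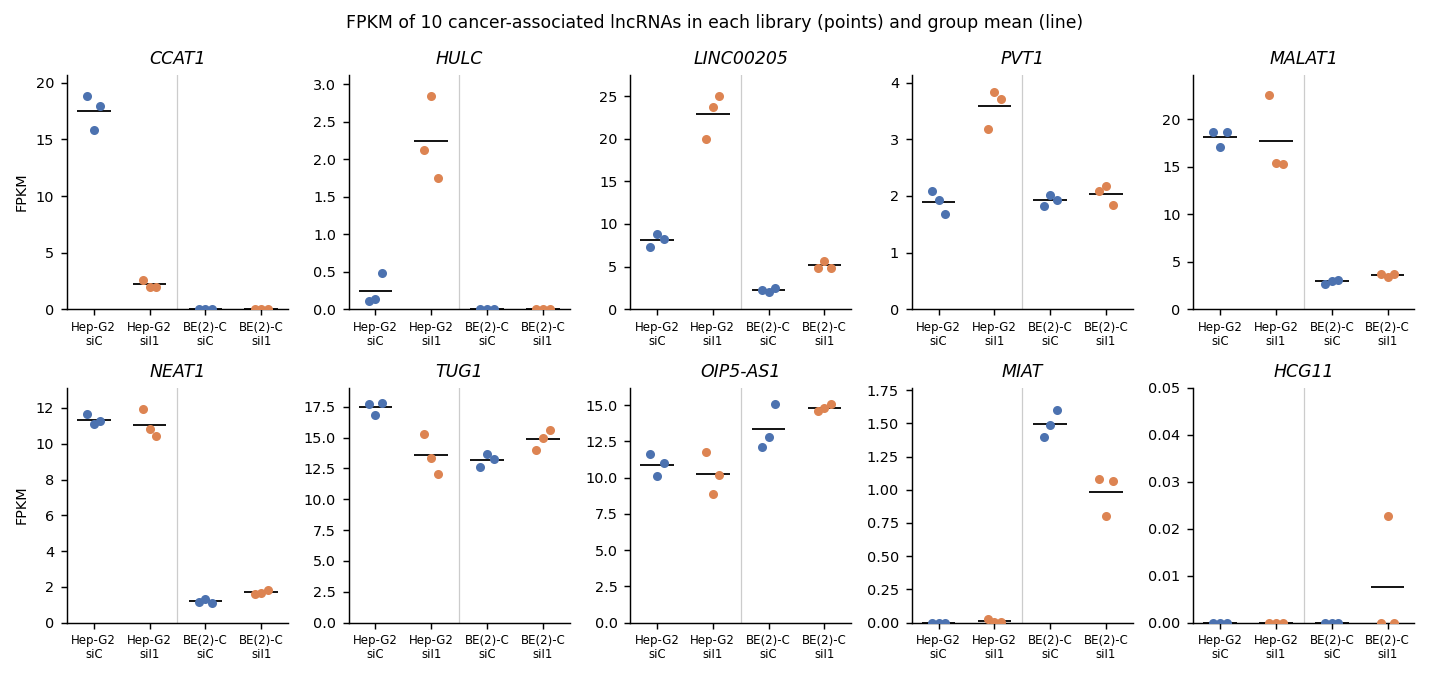
FPKM of each of the 10 noncoding RNAs in the 12 libraries, with 3 points per group, a line at the group mean and a scale of its own in each panel. CCAT1 and HULC were listed at 0 in all BE(2)-C libraries, and the siI1 points of LINC00205 lay above the siC points in both lines.

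In siC libraries of Hep-G2, the highest levels were those of MALAT1 with 18.1 ± 0.94 FPKM (SD, n = 3), CCAT1 with 17.5 ± 1.55 and TUG1 with 17.5 ± 0.56, ranks 30, 34 and 35 among 4193 tested noncoding genes. These 3 overlapped in their replicates. NEAT1 with 11.4 ± 0.29 FPKM and OIP5-AS1 with 10.9 ± 0.78 overlapped with each other and came below them. LINC00205 followed with 8.12 ± 0.75, then PVT1 with 1.90 ± 0.21 and HULC with 0.245 ± 0.21, at rank 2819.

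The order in BE(2)-C was another one. OIP5-AS1 with 13.3 ± 1.55 FPKM (SD, n = 3) and TUG1 with 13.2 ± 0.53 stood highest, at ranks 90 and 91 of 3853, and overlapped. MALAT1 with 2.93 ± 0.20 and LINC00205 with 2.26 ± 0.23 came next, and their libraries did not overlap. PVT1 with 1.92 ± 0.10 lay just under LINC00205, as the highest PVT1 library and the lowest LINC00205 library were both at 2.02. MIAT with 1.5 ± 0.10 and NEAT1 with 1.20 ± 0.12 were lowest and did not overlap with each other. MALAT1 and NEAT1 had several times higher siC values in Hep-G2 than in BE(2)-C, whereas the siC values of PVT1 were similar in both tables.

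CCAT1 (ENSG00000247844), the colon cancer associated transcript, lies upstream of the MYC gene at chr8:127207382-127219268 of GRCh38. In Hep-G2 its FPKM stood at 18.8, 15.8 and 18.0 with siC and 2.60, 2.00 and 2.00 with siI1, on 57 to 622 reads per library. Every siI1 library was far below every siC library. The log2 fold change was -2.94 (SE 0.12), and -3.07 without siI1 replicate 1, which was the highest of its group. CCAT1 was listed at 0 in all 6 BE(2)-C libraries, where 3 reads would have given between 0.0911 and 0.110 FPKM. CASC19, a noncoding gene on the minus strand whose annotated span covers CCAT1 and that was named after the values were seen, had a mean of 21.2 FPKM with siC and 3.22 with siI1 in Hep-G2. How reads shared by overlapping genes were counted is not given in the sources used here, so the values of CCAT1 and CASC19 are uncertain as separate measurements.

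PVT1 (ENSG00000249859) lies on the other side of MYC, at chr8:127794526-128187101, and is gained together with it in many tumors. The Hep-G2 libraries had 2.09, 1.92 and 1.68 FPKM with siC and 3.19, 3.84 and 3.72 with siI1, on 136 to 307 reads. All siI1 libraries were above all siC libraries, with replicate 1 the lowest of the siI1 group. This gave a log2 fold change of 0.88 (SE 0.13), and of 0.96 without that library, 0.72 with equal sums of FPKM and 0.66 with a pseudocount of 1. PVT1 in BE(2)-C had 1.83, 2.02 and 1.93 FPKM with siC and 2.1, 2.18 and 1.85 with siI1. These groups overlapped, at 0.08 (SE 0.11), and at 0.03 to 0.15 with 1 library left out. Several small genes lie within the span of PVT1, and any reads they share with it are uncertain for the reason given for CCAT1. Whether PVT1 differed between the lines was not tested, nor was any other difference between them.

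MYC, the transcription factor gene between CCAT1 and PVT1, had 46.2, 50.4 and 50.7 FPKM with siC and 28.9, 26.3 and 27.4 with siI1 in Hep-G2, all siI1 libraries below all siC libraries (log2 fold change -0.83, SE 0.06, adjusted p of 7.7e-05 by limma). The BE(2)-C line, which has amplified MYCN, had of MYC only 2 to 12 reads per library, and it did not pass the test. LRATD2, the nearest protein-coding gene before CCAT1, was lower with siI1 in Hep-G2 on 4 to 42 reads (-1.47, SE 0.31, adjusted p of 0.0079 by limma, 3 of 3 libraries). POU5F1B after CCAT1 and GSDMC after PVT1 were not tested in either line.

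HULC (ENSG00000251164), highly upregulated in liver cancer, lies at chr6:8652269-8653856 and was counted on few reads. It had 0.116, 0.132 and 0.488 FPKM with siC and 2.13, 2.84 and 1.75 with siI1 in Hep-G2, which are 1, 1 and 4 reads against 16, 23 and 13. Each siI1 library was above each siC library. Over the summed reads, 6 with siC and 52 with siI1, the ratio was 9.18. This is a description only, as HULC was chosen with this difference known. The log2 fold change was 2.90 (SE 0.42), 2.92 without siI1 replicate 1, and fell to 1.38 with a pseudocount of 1. A small noncoding gene, listed at 0 in every library, lies within HULC, so the reads of HULC are uncertain for the reason given for CCAT1. HULC was listed at 0 in BE(2)-C, where 3 reads correspond to 0.349 to 0.421 FPKM. Its neighbor SLC35B3 did not pass the test in either line, and TFAP2A on the other side never exceeded 3 reads.

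The subunits of CCR4-NOT, the deadenylase described for HULC, were all tested, 11 in each line. This list and those that follow were chosen with results of these data known, and none was tested against other genes. Beside the counts of every list stand the shares of all tested genes that were called, for Hep-G2 21.9% higher and 23% lower, for BE(2)-C 13.3% higher and 14.8% lower. In Hep-G2, 2 were called higher and 4 lower at a median of -0.15, beside 0.01 for all tested genes, whereas with equal sums of FPKM all 6 called subunits were lower. That scaling called 16.5% of all tested Hep-G2 genes higher and 30% lower. CNOT9 was lower in both lines, from 19 ± 0.13 FPKM (SD, n = 3) to 15 ± 0.26 in Hep-G2 (-0.34, SE 0.05, adjusted p of 0.0012 by limma, 3 of 3 libraries). It reached -0.13 in BE(2)-C (SE 0.04, adjusted p of 0.046 by limma, 3 of 3 libraries), a call lost whenever any library was left out (-0.14 to -0.11) and with either other scaling (-0.09 and -0.11), voom, no filter, no trend or the block. CNOT11 was called higher in Hep-G2 at 0.15 (SE 0.05, adjusted p of 0.042 by limma, 3 of 3 libraries), but was at -0.01 with equal sums of FPKM. It was not called without siC replicate 1, 2 or 3 or siI1 replicate 2 or 3 (0.13 to 0.18), nor with voom, no filter, no trend or the block. CNOT6, one of the deadenylases of the complex, was higher in BE(2)-C (0.32, SE 0.05, adjusted p of 0.003 by limma, 3 of 3 libraries), where 2 subunits were called higher and 1 lower at a median of 0.07, beside 0.02 for all tested genes. It was also called higher in Hep-G2 (0.29, SE 0.10, adjusted p of 0.048 by limma, 3 of 3 libraries), but not without any siC library or siI1 replicate 2 (0.26 to 0.32), with equal sums of FPKM (0.12), the smaller pseudocount, no filter or no trend.

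LINC00205 (ENSG00000223768) lies at chr21:45288035-45297806 on the plus strand, 137 nt from POFUT2, which points the other way. Its promoter window around the start in RefSeq on GRCh38.p14, chr21:45287802-45288101 on the plus strand, is shown because POFUT2, the gene of a protein O-fucosyltransferase, starts within it. Capitals mark the 6 copies of GGGCGG on either strand, a GC box that 45.0% of 35116 promoters of this length hold. CCAAT (in 34.6% of promoters), CACGTG (7.3%) and TATAAA (11.5%), searched on both strands, were not in this window, and a match or its absence is a description only.
LINC00205 promoter: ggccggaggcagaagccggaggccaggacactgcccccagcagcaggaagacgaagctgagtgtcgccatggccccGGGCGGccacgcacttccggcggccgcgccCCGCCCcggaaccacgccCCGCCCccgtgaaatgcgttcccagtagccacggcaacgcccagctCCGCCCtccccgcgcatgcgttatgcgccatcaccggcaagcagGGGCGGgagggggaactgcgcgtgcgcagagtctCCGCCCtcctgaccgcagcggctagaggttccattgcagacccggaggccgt

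LINC00205 in Hep-G2 had 7.32, 8.81 and 8.24 FPKM with siC and 19.9, 23.8 and 25.1 with siI1, on 158 to 481 reads. The groups were well apart, with siI1 replicate 1 the lowest of its group. The log2 fold change was 1.48 (SE 0.11), and 1.58 without that library. The BE(2)-C libraries had 2.30, 2.02 and 2.47 FPKM with siC and 4.84, 5.70 and 4.87 with siI1, on 36 to 112 reads. Again no siI1 library reached down to a siC library, at a log2 fold change of 1.15 (SE 0.11), or 0.91 with a pseudocount of 1. The study's text describes LINC00205 as downregulated in all of its cell lines, which include lines not described here, and this is the opposite direction. The authors' own deposited fold changes for Hep-G2 and BE(2)-C were not used, so the disagreement was not resolved. POFUT2, at the same promoter, had 7.98, 8.11 and 7.96 FPKM with siC and 8.16, 7.21 and 7.49 with siI1 in Hep-G2, and overlapping groups in BE(2)-C as well. It did not pass the test in either line (-0.07, SE 0.07, adjusted p of 0.41, and 0.08, SE 0.07, adjusted p of 0.45, by limma), and the Hep-G2 value was 0.02 with median centring.

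On the other side of LINC00205, 107359 nt away, lies COL18A1, which encodes the collagen from which endostatin is cleaved. It had 37.3, 37.3 and 35.8 FPKM with siC and 113, 128 and 129 with siI1 in Hep-G2. All siI1 libraries were above all siC libraries by a wide gap (log2 fold change 1.74, SE 0.06, adjusted p of 7.1e-06 by limma). The siI1 libraries of BE(2)-C were all below the siC libraries, with means of 2.32 ± 0.22 against 2.81 ± 0.33 FPKM (SD, n = 3), a difference that did not pass the test (-0.27, SE 0.12, adjusted p of 0.15 by limma), although voom on recovered reads called it at -0.28.

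MALAT1 and NEAT1 are long nuclear RNAs of neighboring genes, the first found in nuclear speckles, where splicing factors gather, and the second the scaffold of paraspeckles. The main MALAT1 transcript ends in a processed structure without a poly-A tail, as does the long form of NEAT1, so their levels in RNA enriched on oligo(dT) beads need not be those in total RNA. For that reason the longest A run within each is shown, from hg38 with the annotation GENCODE v44 and on the plus strand, with the run in capitals. That of MALAT1 has 13 A, lies in exon 1 of 1 within the 30-nt window shown, chr11:65506090-65506119, and is followed by 1963 nt of transcript. A run at least as long was present in 7.6% of 5136 noncoding RNAs tested in either line and found in that annotation. NEAT1 has a run of 22 A in exon 1 of 1, within the window shown, chr11:65440839-65440868. That length was reached by 1.3% of these RNAs, whose median was 6. Neither share takes account of transcript length, and the NEAT1 transcript has 22743 nt.
MALAT1 A run: tctagcttAAAAAAAAAAAAAgcaaaagat
NEAT1 A run: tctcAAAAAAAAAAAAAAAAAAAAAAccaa

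MALAT1 (ENSG00000251562, chr11:65497640-65508073) had 18.7, 17.1 and 18.7 FPKM with siC and 22.5, 15.3 and 15.3 with siI1 in Hep-G2, on 1786 to 2666 reads. The siI1 group held both the highest value and the lowest ones, and the groups overlapped. The log2 fold change was -0.06 (SE 0.15), but -0.24 without siI1 replicate 1, the high library, and 0.03 with median centring. MALAT1 in BE(2)-C had 2.71, 2.99 and 3.09 FPKM with siC and 3.70, 3.41 and 3.67 with siI1, on 335 to 501 reads. Each siI1 library was above each siC library, at 0.29 (SE 0.09), a call that ended whenever a single library was left out (0.24 to 0.33), with a pseudocount of 1 (0.23) and with no filter, no trend or the block. Genes on the opposite strand overlap MALAT1, so its reads are uncertain where the strand setting of the counting, not given in the sources used here, matters.

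NEAT1 (ENSG00000245532, chr11:65422774-65445540) had 11.7, 11.1 and 11.3 FPKM with siC and 12, 10.8 and 10.5 with siI1 in Hep-G2, where the groups overlapped. With 3182 to 4128 reads per library it was among the best counted of the 10, and its difference was -0.04 (SE 0.07), or -0.09 without siI1 replicate 1. These values shifted with the scaling, to 0.05 with median centring and -0.20 with equal sums of FPKM, which moved the median of all tested genes in Hep-G2 from 0.01 to 0.09 and -0.15. NEAT1 in BE(2)-C had 1.141, 1.34 and 1.12 FPKM with siC and 1.57, 1.65 and 1.82 with siI1, on 355 to 576 reads. All siI1 libraries were above all siC libraries, at 0.46 (SE 0.13) and at 0.29 with a pseudocount of 1. That call ended without any library other than siC replicate 2 (0.40 to 0.50) and with no filter or the block. The deposited lengths are 8755 nt for MALAT1 and 22767 nt for NEAT1, so the short and the long form of NEAT1 share a single value. Small genes lie within NEAT1, so its reads are uncertain for the reason given for CCAT1.

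**Figure D2:**
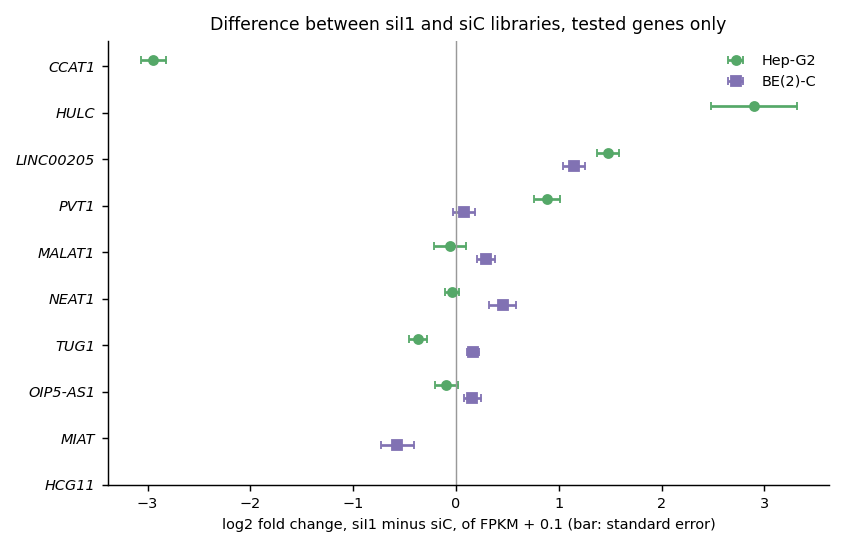
Log2 fold change of FPKM + 0.1, siI1 minus siC, for the noncoding RNAs tested in Hep-G2 (circles) and in BE(2)-C (squares), with bars of 1 standard error. Values ran from -2.94 for CCAT1 to 2.90 for HULC in Hep-G2 and from -0.57 for MIAT to 1.15 for LINC00205 in BE(2)-C.

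Of 13 proteins of paraspeckles, the bodies that NEAT1 builds, all tested in both lines, 1 was called higher and 8 lower in Hep-G2 at a median of -0.22, beside 21.9% and 23% of all tested genes. With median centring 4 were called lower, beside 19% of all tested genes. NONO, one of the core proteins of paraspeckles, had 72.4, 73.6 and 74.4 FPKM with siC and 87.2, 87.6 and 86.9 with siI1 (0.25, SE 0.04, adjusted p of 0.0039 by limma, 3 of 3 libraries), a call lost with equal sums of FPKM, at 0.08. Its dimer partner SFPQ was lower, from 49.0 ± 1.28 FPKM (SD, n = 3) to 37.4 ± 0.45 (-0.39, SE 0.05, adjusted p of 0.00058 by limma, 3 of 3 libraries). Among the 13 in BE(2)-C, 2 were called higher and 5 lower at a median of -0.09. With median centring or equal sums of FPKM, 3 were called lower, beside 12.8% and 14% of all tested genes. PSPC1, the remaining protein of the same family, was the higher one with the smallest p (0.37, SE 0.04, adjusted p of 0.0015 by limma), and RBM14 the lower one (-0.29, SE 0.06, adjusted p of 0.0095 by limma), each in 3 of 3 libraries. RBM14 was also called lower in Hep-G2 (-0.33, SE 0.09, adjusted p of 0.023 by limma, 3 of 3 libraries), but not without siC replicate 2 or 3 (-0.30), with median centring (-0.24) or with no trend.

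Of 15 proteins of nuclear speckles, where MALAT1 resides, all tested, 1 was called higher and 9 lower in Hep-G2 at a median of -0.30, beside 21.9% and 23% of all tested genes, and 6 lower under median centring, beside 19%. The splicing factor SRSF3 was lower, from 41.6 ± 0.83 FPKM (SD, n = 3) to 31.7 ± 0.34 (-0.39, SE 0.04, adjusted p of 0.00049 by limma, 3 of 3 libraries). SRSF9 was the one called higher (0.33, SE 0.06, adjusted p of 0.0049 by limma, 3 of 3 libraries). Among the 15 in BE(2)-C, 4 were called higher and 1 lower at a median of 0.08. Voom on the recovered reads gave 5 higher and 4 lower, beside 17.2% and 17.8% of all tested BE(2)-C genes. RBM25 rose from 12.5 ± 0.37 FPKM (SD, n = 3) to 16 ± 0.37 (0.36, SE 0.05, adjusted p of 0.0022 by limma, 3 of 3 libraries). SRSF4 was the one called lower (-0.19, SE 0.05, adjusted p of 0.037 by limma), a call lost when any single library was left out (-0.22 to -0.17), with no trend, with the block and under both other scalings (-0.15 and -0.17). The 60 tested proteins of all partner lists together, the IGF2BP family included, gave 6 called higher and 28 lower in Hep-G2, against 8 and 32 without siI1 replicate 1, 3 and 20 without siC replicate 3, 8 and 20 with median centring, and 2 and 36 with equal sums of FPKM. Of all tested Hep-G2 genes, median centring called 25.8% higher and 19% lower, and equal sums 16.5% and 30%. The 60 partner proteins tested in BE(2)-C gave 12 higher and 11 lower, against 6 and 4 without siI1 replicate 1 or 3, 7 and 4 without siI1 replicate 2, 8 and 4 with no trend, and 13 and 15 with voom.

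TUG1 (ENSG00000253352), taurine upregulated gene 1, has been described as a partner of the chromatin-modifying complex PRC2. It lies at chr22:30969245-30979395 on the plus strand, 471 nt from MORC2, which is transcribed away from it. The RefSeq promoter of TUG1 on GRCh38.p14 at chr22:30969015-30969314, plus strand, is shown. The annotated start of MORC2 lies outside this window, and a match in it is a description only. Capitals mark 4 GGGCGG, 2 CCAAT and 1 CACGTG, the E-box letters, counted on both strands.
TUG1 promoter: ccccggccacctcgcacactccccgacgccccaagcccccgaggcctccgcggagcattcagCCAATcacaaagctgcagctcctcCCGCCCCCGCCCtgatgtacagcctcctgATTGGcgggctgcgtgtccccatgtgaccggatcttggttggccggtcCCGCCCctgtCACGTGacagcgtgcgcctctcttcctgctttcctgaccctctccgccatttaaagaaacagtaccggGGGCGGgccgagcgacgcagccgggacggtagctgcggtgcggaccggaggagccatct

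TUG1 in Hep-G2 had 17.8, 16.8 and 17.9 FPKM with siC and 15.3, 13.4 and 12.1 with siI1, on 1098 to 1873 reads. All siI1 libraries were lower, replicate 1 the least so. The log2 fold change was -0.37 (SE 0.09), or -0.46 without that library and -0.35 without siC replicate 3, which ended the call, and it was -0.28 with median centring and -0.53 with equal sums of FPKM. The BE(2)-C values were 12.7, 13.7 and 13.3 with siC and 14, 15.0 and 15.7 with siI1, on 1194 to 1477 reads. Here each siI1 library was above each siC library, by less, at 0.17 (SE 0.06), and 0.21 with median centring, where it was called, as it was with voom. Several small genes lie within TUG1 on either strand, 2 of them antisense noncoding genes, and as the strand setting of the read counting is not given in the sources used here, reads from them may be included or missing.

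MORC2, the chromatin-remodeling ATPase gene beside TUG1, had 11.3, 10.9 and 11.2 FPKM with siC and 9.55, 10.6 and 10.6 with siI1 in Hep-G2, all siI1 libraries lower, but did not pass the test (-0.11, SE 0.06, adjusted p of 0.19 by limma) except with equal sums of FPKM, at -0.28. It was higher in 3 of 3 siI1 libraries of BE(2)-C (0.25, SE 0.05, adjusted p of 0.0085 by limma). SMTN, 84710 nt to the other side of TUG1, did not pass the test in either line except with voom in BE(2)-C (-0.30).

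The 11 subunits and cofactors of PRC2, the complex described for TUG1, which trimethylates histone H3, were all tested. In Hep-G2, 1 was called higher and 5 lower, although the median was 0.02, and -0.15 with equal sums of FPKM, beside 0.01 and -0.15 over all tested genes. SUZ12, a core subunit, fell from 9.10, 7.48 and 8.96 FPKM to 4.12, 3.05 and 3.02 (-1.31, SE 0.14, adjusted p of 0.00045 by limma, 3 of 3 libraries). RBBP7, a histone-binding subunit, rose by 0.36 (SE 0.06, adjusted p of 0.0038 by limma, 3 of 3 libraries). In BE(2)-C, 2 were called higher and 2 lower at a median of -0.09, and with voom 2 and 4, beside 17.2% and 17.8% of all tested genes. There, the cofactor AEBP2 was higher at 0.52 (SE 0.08, adjusted p of 0.0037 by limma) and the cofactor PHF19 lower at -0.37 (SE 0.05, adjusted p of 0.0029 by limma), each in 3 of 3 libraries.

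OIP5-AS1, the human counterpart of Cyrano, directs the decay of the microRNA miR-7 through extensive pairing, in which the ubiquitin ligase adaptor ZSWIM8 takes part. Its longest transcript in GENCODE v44 held 3 matches to bases 2 to 8 of miR-7-5p. Of the noncoding RNAs searched, 11.5% had at least 1, with no account taken of transcript length. At 1 of the 3, in exon 4 of 4 within the window chr15:41300572-41300601 on the plus strand of hg38, the match to the seed has 8 bases. Before it, across 4 unmatched bases, lie 14 further matched bases, and capitals mark both. In the mature miRNA, from RefSeq on GRCh38.p14, capitals mark the seed.
hsa-miR-7-5p: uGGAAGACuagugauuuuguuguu
OIP5-AS1 site: agAACAACAAAATCACcaatGTCTTCCAtt

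OIP5-AS1 (ENSG00000247556, chr15:41283958-41322392) had 11.6, 10.1 and 11 FPKM with siC and 11.8, 8.86 and 10.2 with siI1 in Hep-G2, on 1635 to 2288 reads. The groups overlapped, at -0.09 (SE 0.11), or -0.20 without siI1 replicate 1, the highest of the 6, and -0.26 with equal sums of FPKM. With median centring the Hep-G2 value was -0.002. OIP5-AS1 in BE(2)-C had 12.1, 12.8 and 15.1 FPKM with siC and 14.6, 14.8 and 15.1 with siI1, on 2079 to 2856 reads. These overlapped through siC replicate 3, at 0.16 (SE 0.08), and without that library the difference was 0.25 and called. The lowest value with 1 library left out was 0.09. OIP5, on the opposite strand, and NUSAP1, on the same strand, overlap OIP5-AS1, so that its reads are uncertain for the reasons given for TUG1 and for CCAT1.

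Of the genes flanking OIP5-AS1, CHP1, 2071 nt away and coding for a calcineurin-like EF-hand protein, was higher with siI1 in Hep-G2, with 43.5, 43.1 and 41.0 against 46.9, 49.2 and 50.2 FPKM (0.20, SE 0.05, adjusted p of 0.018 by limma, 3 of 3 libraries). That call was lost without siC replicate 3 (0.17), siI1 replicate 2 (0.19) or siI1 replicate 3 (0.18), with no trend and with equal sums of FPKM (0.03). The same gene was lower in BE(2)-C, with 34.5, 30.8 and 23.9 against 22.8, 20.8 and 22.3 FPKM (-0.42, SE 0.13, adjusted p of 0.049 by limma, 3 of 3 libraries). Leaving out siC replicate 1 (-0.30) or 2 (-0.38) or any siI1 library (-0.45 to -0.38) ended this call, as did median centring (-0.38), the smaller pseudocount, no filter, no trend or the block. NDUFAF1, an assembly factor of respiratory complex I, was lower in Hep-G2 (-0.31, SE 0.08, adjusted p of 0.016 by limma, 3 of 3 libraries), but not called without siC replicate 3 (-0.24) or with median centring (-0.22), and it did not pass the test in BE(2)-C.

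MIAT, also known as Gomafu, carries copies of TACTAAC, the letters of the intron branch point that the splicing factors SF1 and QKI recognize in RNA. The longest MIAT transcript held 7 copies, none of the 5136 noncoding RNAs compared held more, and 3.6% had at least 1. These counts take no account of transcript length, which is 10143 nt for MIAT. The window shown holds 2 of them in capitals, in exon 5 of 5 at chr22:26672178-26672207 on the plus strand of hg38.
MIAT window: gactTACTAACccagccccTACTAACcctg

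MIAT (ENSG00000225783, chr22:26646411-26676475) had 1.40, 1.49 and 1.60 FPKM with siC and 1.08, 0.799 and 1.06 with siI1 in BE(2)-C, on 130 to 258 reads. All siI1 libraries were below all siC libraries, at -0.57 (SE 0.16) and at -0.34 with a pseudocount of 1. Leaving out any single library ended the call (-0.64 to -0.44), as did no filter or the block. MIATNB, on the same strand, and a gene on the opposite strand overlap MIAT, which leaves both doubts about its reads. In Hep-G2 it was listed at 0 with siC and had 4, 1 and 1 reads with siI1, which is too little for a comparison. HCG11 (ENSG00000228223, chr6:26521709-26527404) was listed at 0 in every library but 1, BE(2)-C siI1 replicate 2, with a single read.

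Among 8 proteins described to work with OIP5-AS1 or MIAT, 7 were tested in Hep-G2, with 1 called higher and 1 lower at a median of -0.00. With median centring 2 were called higher and 1 lower at a median of 0.09, with equal sums of FPKM 0 and 4 at -0.17, and with voom 2 and 2. Of all tested Hep-G2 genes, median centring called 25.8% higher and 19% lower, equal sums 16.5% and 30%, and voom 23.5% and 24.8%. The median of all tested genes was 0.09 with median centring and -0.15 with equal sums. ZSWIM8 was the higher one (0.26, SE 0.07, adjusted p of 0.026 by limma, 3 of 3 libraries), a call lost without any single siC library (0.22 to 0.29), with no trend and with equal sums of FPKM (0.10). CUL3, the cullin that such adaptors join, was the lower one, from 7.60 ± 0.38 FPKM (SD, n = 3) to 5.36 ± 0.68 (-0.50, SE 0.10, adjusted p of 0.0069 by limma, 3 of 3 libraries). All 8 were tested in BE(2)-C, 1 was called higher and 1 lower, and the median was -0.08. QKI was higher (0.32, SE 0.07, adjusted p of 0.018 by limma, 3 of 3 libraries), not called without any single siI1 library (0.31 to 0.32). CELF3, a splicing regulator of neurons, was lower (-0.29, SE 0.07, adjusted p of 0.023 by limma, 3 of 3 libraries), not called without siI1 replicate 1 (-0.26) or 3 (-0.29), with no trend or with the block.

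**Figure D3:**
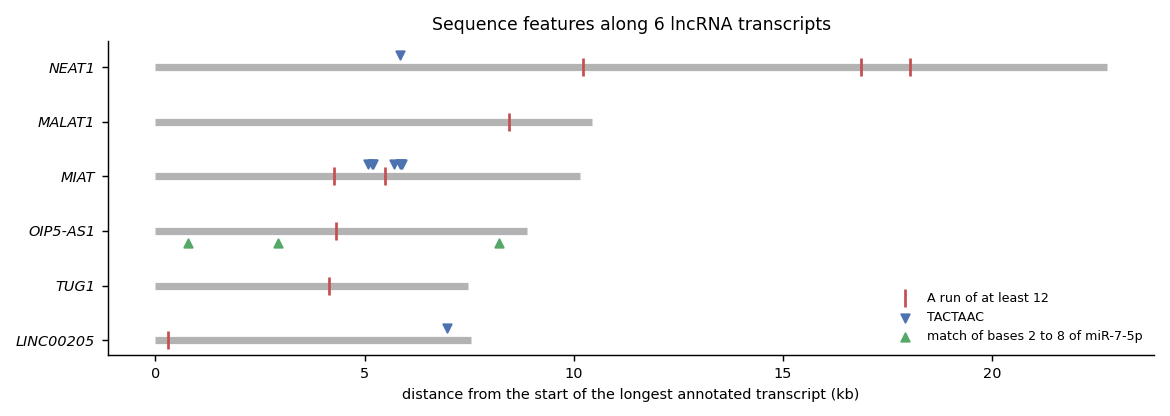
Positions, in kb from the start of the longest annotated transcript, of A runs of at least 12, of TACTAAC and, for OIP5-AS1, of matches to bases 2 to 8 of miR-7-5p, along 6 transcripts drawn to scale. The 7 TACTAAC of MIAT lie near one another, and the 3 miR-7-5p matches of OIP5-AS1 are spread over its 8881 nt.

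Short letters described for binding by IGF2BP1 or for the methyl mark it reads were counted in the longest transcripts of the 8 noncoding RNAs that GENCODE v44 holds under the deposited identifiers. CATA, CATC and CATT together occurred 15.5 times per kb in HCG11, 13.1 in PVT1, 12.4 in NEAT1, 12.2 in TUG1 and 12.2 in OIP5-AS1, above the median of 10.5 over 5136 noncoding RNAs. They occurred 9.46 times per kb in MIAT, 7.68 in LINC00205 and 7.57 in MALAT1, below that median. GGAC occurred 6.53 times per kb in PVT1, 5.69 in LINC00205, 5.13 in MIAT, 3.34 in HCG11 and 3.21 in TUG1, against a median of 3.14, and 2.55 in NEAT1, 2.4 in MALAT1 and 1.8 in OIP5-AS1. For the first letters, 14.8% of these RNAs were at or above HCG11, 29.0% at or above PVT1 and 35.7% at or above OIP5-AS1. For GGAC, 11.8% were at or above PVT1, 17.2% at or above LINC00205 and 48.9% at or above TUG1. LINC00205 thus held fewer of the first letters and more of GGAC than the median, and these counts are not binding sites. Its transcript in that annotation has 7553 nt, against a length of 1391 nt in the deposited tables, so most of it was not part of the counted gene. For PVT1 the transcript has 2450 nt, against a deposited length of 5493 nt. The longest A runs were 29 nt in OIP5-AS1, a length reached by 0.3% of noncoding RNAs, 24 in MIAT, 21 in HCG11, 18 in TUG1, 14 in LINC00205 and 6 in PVT1. These runs were compared without regard to transcript length.

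Of the 18 protein-coding genes nearest to the 10 noncoding RNAs, 13 were tested in Hep-G2, of which 2 were called higher and 6 lower at a median of -0.22. The 11 tested in BE(2)-C had 1 called higher and 3 lower at a median of -0.17, but 2 calls were left with no filter, no trend or the block, and without siC replicate 1 or 2 or any siI1 library. With voom 1 was called higher and 5 lower, beside 17.2% and 17.8% of all tested genes. HMGN4, a chromatin protein gene beside HCG11, was lower in both lines, with 39.3, 39.9 and 42.1 against 13.6, 15.2 and 16.4 FPKM in Hep-G2 (-1.42, SE 0.08, adjusted p of 2.4e-05 by limma) and with 32.7, 29.9 and 32.7 against 19.9, 21.7 and 19.7 in BE(2)-C (-0.64, SE 0.06, adjusted p of 0.00059 by limma). BTN1A1, a butyrophilin gene on the other side of HCG11, had 0.829 ± 0.27 FPKM (SD, n = 3) with siC and 0.0316 ± 0.05 with siI1 in Hep-G2. It passed the filter only through its siC libraries, so its call among the 6 lower is not used. BTN1A1 is still part of that count and of the median of -0.22. Its summed reads were 104 with siC and 4 with siI1.

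FRMD8, which lies beside NEAT1 and stabilizes the protease regulator iRhom, did not pass the test in Hep-G2 (-0.22, SE 0.08, adjusted p of 0.056 by limma) except without siC replicate 3 (-0.30), with equal sums of FPKM (-0.39) or among genes of at least 1 FPKM. It was called lower in BE(2)-C (-0.47, SE 0.13, adjusted p of 0.035 by limma, 3 of 3 libraries), a call lost without siC replicate 1 (-0.44) or 2 (-0.36) or any siI1 library (-0.49 to -0.42) and with no filter, no trend or the block. CRYBA4 and MN1 beside MIAT were not tested in either line.

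**Figure D4:**
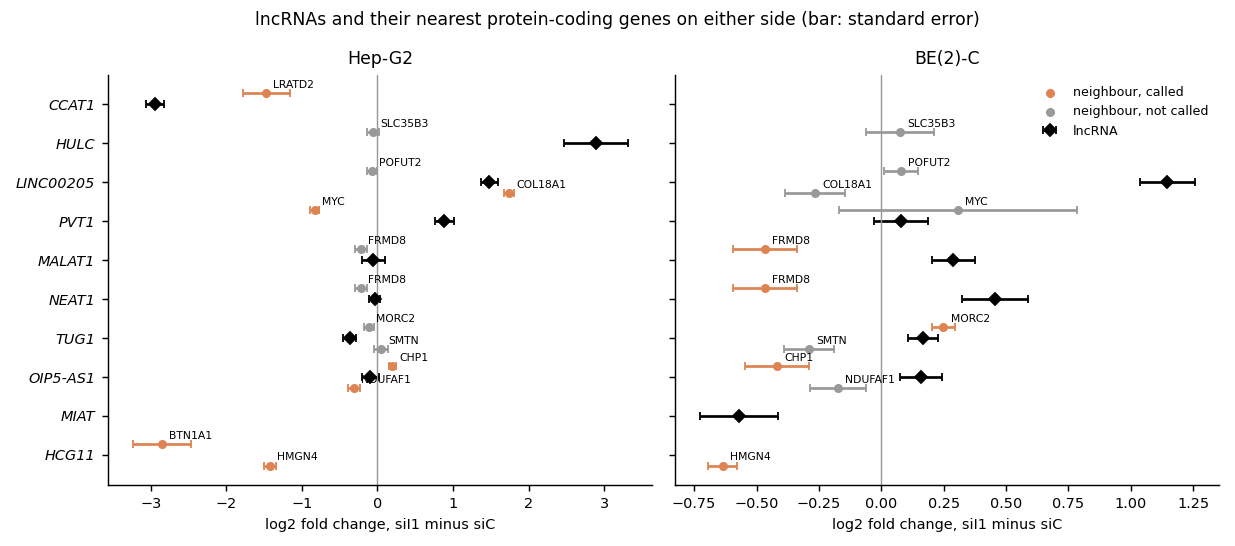
Log2 fold change, siI1 minus siC, of each tested noncoding RNA (diamonds) and of nearest protein-coding genes on either side (circles, orange where limma called them), with bars of 1 standard error and a separate scale per cell line. In Hep-G2, LINC00205 at 1.48 and COL18A1 at 1.74 lie on the same side, and PVT1 at 0.88 and MYC at -0.83 on opposite sides.

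Other noncoding RNAs linked to cancer gave a wider frame. Of 40 on a list, 21 were tested in Hep-G2, of which 5 were called higher and 7 lower at a median of -0.05, which was 0.03 with median centring. TP53TG1 had the largest increase, from 15.5, 14.6 and 15.6 FPKM to 40.0, 47.4 and 47.3 (1.55, SE 0.08, adjusted p of 2e-05 by limma, 3 of 3 libraries), and EPB41L4A-AS1 was higher in Hep-G2 (0.77, SE 0.11, adjusted p of 0.0016 by limma) and in BE(2)-C (0.58, SE 0.08, adjusted p of 0.0026 by limma). The largest decrease was that of CDKN2B-AS1, the antisense RNA of the INK4 locus, from 1.97 ± 0.06 FPKM (SD, n = 3) to 0.105 ± 0.06 (-3.39, SE 0.29, adjusted p of 0.00014 by limma). Its summed reads were 366 with siC and 18 with siI1, a ratio of 0.0521 with an exact 95% counting interval of 0.0305 to 0.0835. UCA1 (-1.49, SE 0.35, adjusted p of 0.012 by limma, 4 to 33 reads) and LUCAT1 (-1.34, SE 0.24, adjusted p of 0.0042 by limma, 22 to 90 reads) followed, all of them in 3 of 3 libraries.

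The other line had 24 of the 40 tested, and limma called 8 of these higher and 0 lower in BE(2)-C at a median of 0.19. At an unadjusted p below 0.05, 3 were lower, and voom on the recovered reads called 2 lower, beside 17.8% of all tested genes. HOTAIR, transcribed from the HOXC cluster, rose from 2.68, 3.03 and 2.97 FPKM to 6.76, 6.28 and 8.50 (1.27, SE 0.12, adjusted p of 0.00066 by limma). FIRRE, a nuclear RNA of the X chromosome, rose from 1.52 ± 0.03 FPKM (SD, n = 3) to 3.6 ± 0.22 (1.19, SE 0.09, adjusted p of 0.00033 by limma). CASC15, from a neuroblastoma susceptibility locus, rose from 0.972 ± 0.07 to 2.09 ± 0.02 (1.04, SE 0.12, adjusted p of 0.0012 by limma). All 3 were higher in 3 of 3 libraries, and HOTAIR was listed at 0 in Hep-G2.

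**Figure D5:**
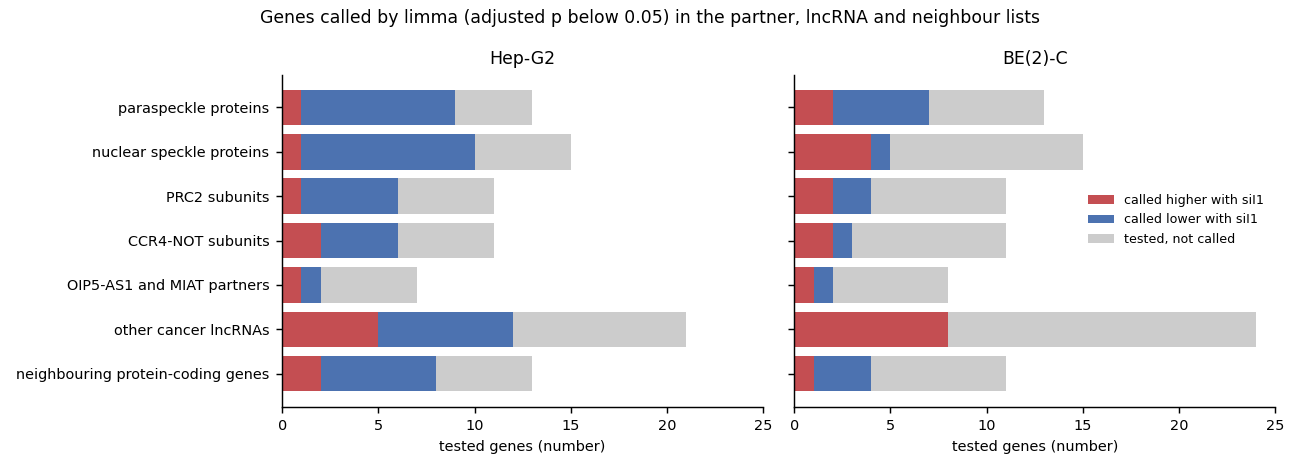
Number of tested genes called higher, called lower or not called by limma in the 5 partner lists, the other cancer-associated noncoding RNAs and the neighboring protein-coding genes, in Hep-G2 (left) and BE(2)-C (right). In Hep-G2, 8 of 13 paraspeckle and 9 of 15 nuclear speckle proteins were called lower, or 4 and 6 with median centring, and in BE(2)-C all 8 called noncoding RNAs were higher.

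For the 6 noncoding RNAs tested in both lines, the most similar pattern over the 12 libraries was sought among 15361 genes, after centring log2(FPKM + 0.1) on the mean of each line. The highest Pearson r was 0.99 for LINC00205 with PLEKHH3, 0.98 for PVT1 with DNAJB2, 0.98 for TUG1 with KDM6A, 0.96 for MALAT1 with TXLNG, 0.96 for NEAT1 with ZNF431 and 0.95 for OIP5-AS1 with RPL32P3. The libraries share the siRNA contrast, which these values include, and they carry no test. PLEKHH3 was higher with siI1 in both lines, at 0.79 and 0.57 in Hep-G2 and BE(2)-C. DNAJB2, a co-chaperone gene, was at 1.08 and 0.05, and the histone demethylase gene KDM6A at -0.40 and 0.26.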

How the data were processed

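The authors clipped reads with cutadapt 1.14, aligned them to hg38 with HISAT2 2.1.0 and SAMtools 1.5, counted them on Ensembl genes with featureCounts 1.5.3 and tested with edgeR 3.30.3, as the study's methods and the labels say. For each line they deposited values per gene and library in tables that name no unit, taken here as FPKM on a TMM-scaled library size. Columns with their own fold change, p-value and FDR also exist and were not used. FPKM times gene length, divided by a step found for each library (64.4 to 78.0), gave whole reads within 0.01 for all genes. Genes that reached 0.1 FPKM in 3 or more of 6 libraries were compared with limma 3.58.1 (R 4.3.3) on log2(FPKM + 0.1) with a mean-variance trend, across all genes and within each line, with Benjamini-Hochberg adjustment and a threshold of 0.05. As a check of the code only, the fit was tested on simulated data. An exact permutation test of 3 against 3 libraries cannot go below p = 0.1. Further work used matplotlib 3.10.9, scipy 1.17.1, pandas 2.3.3 and numpy 2.4.6 under Python 3.11.15. Alternatives covered pseudocount, filter, trend, scaling, voom on recovered reads, a stricter threshold, the replicate block and leaving out each library. The 10 noncoding RNAs and the lists (paraspeckle, nuclear speckle, PRC2, CCR4-NOT, OIP5-AS1 and MIAT partners, IGF2BP family, other cancer noncoding RNAs, markers of both lines, neighbors) were chosen with earlier results of these data known. Named are all 10, the IGF2BP family, nearest protein-coding neighbors, per partner list and line the called gene with the smallest p in each direction (all where under 3 were called), the 3 largest called changes per direction of the other noncoding RNAs, and the most similar gene, while 2 genes that these rules would name are not reported here by name but stay in the counts. Design tables had assumed a per-length unit, which FPKM is. Positions are from GENCODE v44 or, for CCAT1 and HULC, from RefSeq. Promoters of 6 of the 10 were found in the RefSeq table.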

Additional observations from a re-analysis of the deposited data

Results flagged for a closer look

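Of the 17 noncoding RNAs and neighbors tested in both lines, 4 had every siI1 library on one side of the siC libraries in Hep-G2 and on the opposite side in BE(2)-C, beside 11.3% of all 15362 genes tested in both lines (KDM6A, PSPC1 and QKI among them). The 17 were chosen with their values known, so nothing is read from the 2 shares. The difference between the lines was not tested. TUG1 was at -0.37 in Hep-G2 and 0.17 in BE(2)-C on the log2 scale. COL18A1, the neighbor of LINC00205, was at 1.74 and -0.27. MORC2, the neighbor of TUG1, was at -0.11 and 0.25, and CHP1, the neighbor of OIP5-AS1, at 0.20 and -0.42.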

How the results depend on the processing

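Same-numbered siC and siI1 libraries did not deviate together (r across genes 0.0625, 0.0351 and -0.00619 for Hep-G2, then 0.0225, -0.0102 and -0.00283 for BE(2)-C), so the numbers were not taken to pair them. With the replicate block, Hep-G2 had 8820 called genes of all types (8713 without it). BE(2)-C had 4672 (5252 without it), with 1 noncoding RNA of the 10 (4 without it) and 2 neighbors (4 without it). At an adjusted p below 0.01, by its construction fewer, 5721 Hep-G2 genes and 2614 BE(2)-C genes were called, with 1 of the 10 in the latter. In BE(2)-C, no filter left 1 of the 10 and 2 neighbors, and no trend left 2 neighbors and 12 partner proteins (23 with it), the cause of which was not tested. Leaving out a library gave 3431 to 4455 genes in BE(2)-C, 1 to 2 of the 10, 2 to 4 neighbors and 10 to 20 partner proteins. Equal sums of FPKM moved the share of calls that were higher in Hep-G2 from 48.8% to 35.5%, and median centring to 57.6%. Signs turned for CNOT11 (-0.0145) and SMTN (-0.116) in Hep-G2 with equal sums, and for POFUT2 (0.0176) and SLC35B3 (0.0330), as well as for MALAT1 (0.0343) and NEAT1 (0.0542), in Hep-G2 with median centring. With 1 library left out, SMTN ran from -0.0097 to 0.119 in Hep-G2 and SLC35B3 from -0.0530 to 0.151 in BE(2)-C, while MALAT1, NEAT1 and OIP5-AS1 in Hep-G2 reached 0.0360, 0.00181 and 0.00535, and the cause was not tested. Few reads limit HULC, MIAT in Hep-G2 and HCG11.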
